A study of Mus musculus with 2 samples.

Results

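Serine synthesis and folate one-carbon metabolism were followed through the 8 genes Phgdh, Psat1, Psph, Shmt1, Shmt2, Mthfd1, Mthfd2 and Mthfd1l in RNA sequencing of mouse lung fibroblasts. They were picked by gene symbol among the 14694 genes of the deposited count table, and every symbol had exactly 1 row. There were 2 libraries of rRNA-depleted total RNA, 1 titled IR-4 and 1 titled NC-4, from a study of rosmarinic acid and radiation-induced pulmonary fibrosis. The labels do not spell out IR or NC, and they give no dose, time, strain, animal age or drug treatment for either library. The source is named as fibroblasts, whereas the protocol describes spinning and filtering of cell supernatants, so cells and vesicles cannot be told apart as the origin of the RNA. With 1 library per group no difference has a replicate check and no p-value is given: each comparison is between these libraries, not between conditions.

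Cells make serine from the glycolytic intermediate 3-phosphoglycerate in a chain of oxidation, transamination and dephosphorylation steps, catalysed by PHGDH, PSAT1 and PSPH. The serine hydroxymethyltransferases SHMT1 in the cytosol and SHMT2 in mitochondria then split serine into glycine and a carbon unit carried by tetrahydrofolate, and the MTHFD enzymes convert that unit between methylene and formyl forms for purine, thymidylate and methionine synthesis. Cultured human lung fibroblasts are known to raise this pathway when TGF-beta turns them into myofibroblasts, since collagen is rich in glycine. The transcription factor ATF4 is a known activator of most of these genes.

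All 8 genes were well expressed, and none differed by as much as 1.5-fold between the libraries. The 4 genes Phgdh, Psat1, Shmt1 and Mthfd2 were higher in the IR library and the 4 genes Psph, Shmt2, Mthfd1 and Mthfd1l lower, by 1.09-fold to 1.25-fold in either direction. Among the enzymes of serine synthesis the chain divided, with the first and second steps higher in IR and the last step lower. The paired hydroxymethyltransferases also went opposite ways, cytosolic Shmt1 being higher and mitochondrial Shmt2 lower. Ratios are IR over NC, from CPM (read counts brought to a common library size) with TMM scaling, which evens out composition, and each interval is an exact 95% interval that covers counting error only.

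A pair of sequences bears on how well the serine synthesis counts can be read. The first shows why reads of Phgdh can be shared with other loci. Phgdh (chromosome 3, 98313170 to 98339990, minus strand, GRCm38) shares 47.8% of the 50-base words of its transcripts with 23 other annotated genes. The closest is the processed pseudogene Gm7901 on chromosome 8 (75711600 to 75713196), which matches the open reading frame of Phgdh at all but 56 of 1595 aligned bases, an identity of 96.5% with an identical run of 312 bases. A stretch of 60 bases, counted as bases 436 to 495 of the reading frame, is given from the GENCODE vM21 transcripts with the differing bases in capitals.
Phgdh: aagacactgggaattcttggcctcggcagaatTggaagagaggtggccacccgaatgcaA
Gm7901: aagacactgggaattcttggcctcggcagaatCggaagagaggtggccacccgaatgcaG
How the authors' counting treated such reads is not given in the sources used here, so the Phgdh level is uncertain. The other 7 genes shared less with other loci, from no words for Mthfd1, Mthfd2 and Mthfd1l to 8.82% for Psph.

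The second pair of stretches shows that Psph stands head to head with another gene. Psph (chromosome 5, 129765558 to 129787449, minus strand) and Cct6a (129786998 to 129846371, plus strand), which encodes a subunit of the cytosolic chaperonin and was chosen after its value was seen, overlap at their 5′ ends. The overlap covers 10.4% of the exon sequence of Psph, and its reads cannot be assigned to a strand, because the strand setting of the counting is not given in the sources used here. The RefSeq start sites of the genes lie at 129787253 for Psph and 129787356 for Cct6a. The 102 bases between them, which lie in the exon overlap and so count in GENCODE as exon of both genes, hold 2 CCAAT boxes. They are given as stretches of 25 bases from RefSeq (GRCm38.p6, minus strand, chr5:129787317-129787341 and chr5:129787287-129787311) with the box in capitals in the reverse orientation ATTGG.
Psph and Cct6a, distal to Psph: gagcacctccATTGGgtggcgaccc
Psph and Cct6a, proximal to Psph: ccgcccgctgATTGGcttaatccaa

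Depth was close in both libraries, at 35219511 counted reads in IR and 36084512 in NC, and 10921 genes with at least 50 reads over both libraries were compared. The fibroblast marker sum was 5046 CPM for IR against 5893 for NC, with rows for 12 of 15 genes and none for Lum, Thy1 and Tcf21. Of the 10 compared, 7 had an interval below 0 and 2 above, with a median log2 ratio of -0.42, from Col1a1 at -1.27 (273 and 688 reads, at least 2-fold lower in IR) upward, while Fn1 (-0.80) and Vim (0.27), the most abundant, went opposite ways. Epithelial markers reached 2.87 and 1.84 CPM (4 of 11 with rows), endothelial markers 4.70 and 4.36 CPM (5 of 7) and leukocyte markers 88.2 and 67.5 CPM (5 of 9, mostly Cd68). Mesothelial markers, nearly all Msln, reached 97.8 and 197 CPM. The part of other cell types in the ratios of the enzymes was not tested, and fewer cells of a type and less RNA per cell cannot be told apart in bulk samples.

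The serine synthesis genes were led by Phgdh, whose product oxidises 3-phosphoglycerate in the first step. Phgdh had 62487 reads in IR and 57202 in NC, or 1791 and 1570 CPM. It was the most abundant of the 8 genes per length, at 720.5 CPM per kilobase of exon in IR (interval 715 to 726) and 632 in NC (626 to 637), and ranked 75 in IR and 82 in NC among the 14584 genes with an annotated length. The log2 ratio was 0.19 (interval 0.17 to 0.21), a level 1.14-fold higher in IR.

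Psat1 (chromosome 19, 15904678 to 15947337, minus strand), the aminotransferase that takes nitrogen from glutamate, had 14896 and 13336 reads, with a log2 ratio of 0.22 (interval 0.19 to 0.26). Per length it stood at 100.4 in IR and 86.1 in NC, well below Phgdh in both. Psat1 and Phgdh were therefore higher in IR by nearly the same factor: their log2 ratios differed by 0.03 (interval -0.0055 to 0.07).

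Psph, whose product releases serine in the last step, was the gene of the chain that went the other way. It had 9409 reads in IR and 12271 in NC, and its log2 ratio was -0.32 (interval -0.36 to -0.28), a level 1.25-fold higher in NC. The ratio of Psph to Psat1 per length was 0.62 in IR and 0.90 in NC, a difference of log2 ratios of -0.54 (interval -0.59 to -0.49). Against Phgdh the difference was -0.51 (interval -0.55 to -0.47). Gene-to-gene ratios of this kind do not depend on the scaling of the libraries.

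The neighbour Cct6a was also lower in IR, with 2374 and 3230 reads and a log2 ratio of -0.38 (interval -0.46 to -0.30). Psph and Cct6a differed in log2 ratio by 0.06 (interval -0.03 to 0.15), which includes 0. The part of shared reads in this likeness was not tested. Shmt1 overlaps the 3′ end of Smcr8, also chosen after its value was seen, over 4.74% of its exon sequence, and there the ratios parted: Smcr8 had 872 and 1036 reads (log2 ratio -0.19) against a higher level of Shmt1 in IR.

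The summed reads of the 3 serine synthesis genes made up 0.246% of the IR library and 0.229% of the NC library. These shares are of all counted reads, without TMM scaling. With TMM scaling that sum gave a log2 ratio of 0.13 (interval 0.12 to 0.14). All 8 genes together took nearly equal shares of the counted reads, 0.435% and 0.434%. With TMM scaling their log2 ratio was 0.03 (interval 0.02 to 0.04), so this small difference rests on the scaling. Without Phgdh, the remaining 7 gave 2600.5 CPM for IR against 2725 for NC, so the sum turned to the NC side (log2 ratio -0.07, interval -0.08 to -0.05).

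**Figure D1:**
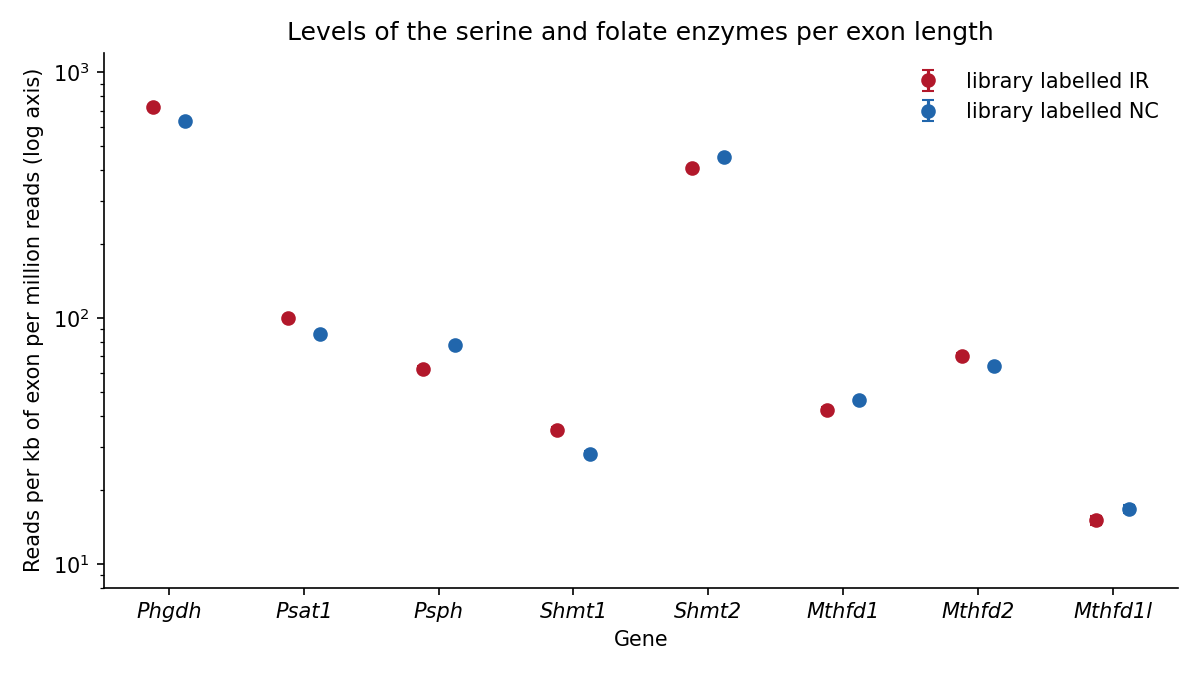
CPM per kilobase of exon (log axis) for the 8 genes in the IR library (red) and the NC library (blue), 1 point per library with exact 95% Poisson intervals that are mostly smaller than the points. Phgdh and Shmt2 stand far above the others in both libraries, and Mthfd1l is lowest at 15.1 and 16.8.

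Among the hydroxymethyltransferases the mitochondrial gene was by far the more abundant. Shmt2 (chromosome 10, 127517123 to 127522444, minus strand) had 44221 reads in IR and 51370 in NC, or 408 and 454 per kilobase on the same scale. Its log2 ratio was -0.15 (interval -0.17 to -0.14), a level 1.11-fold higher in NC. Shmt1 (chromosome 11, 60788104 to 60811718, minus strand), the cytosolic enzyme, had 4755 and 3964 reads, or 35.1 and 28.0 per kilobase. Its log2 ratio of 0.32 (interval 0.26 to 0.39) was the highest of the 8.

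The level of Shmt2 per length was 11.6 times that of Shmt1 in IR and 16.2 times in NC. The difference of their log2 ratios was -0.48 (interval -0.54 to -0.41). The balance of their transcripts thus lay less far to the mitochondrial isoenzyme in the IR library, and protein was not measured here.

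The enzymes that convert folate-bound carbon units work in the same compartments. Mthfd2 (chromosome 6, 83305691 to 83325908, minus strand), the mitochondrial dehydrogenase and cyclohydrolase, had 8558 reads in IR and 8120 in NC and a log2 ratio of 0.14 (interval 0.09 to 0.18). Its paralogue Mthfd2l was scarce, with 58 and 52 reads and an interval from -0.35 to 0.79 around a log2 ratio of 0.21. Per length Mthfd2 exceeded Mthfd2l 281 times in IR and 298 times in NC.

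Mthfd1l (chromosome 10, 3973118 to 4167081, plus strand), the mitochondrial synthetase that releases formate, had 2329 and 2707 reads. Its log2 ratio was -0.15 (interval -0.24 to -0.07). It acts after Mthfd2 in the same organelle, yet the log2 ratios of the pair differed by 0.29 (interval 0.20 to 0.38), Mthfd2 being the higher. Mthfd1 (chromosome 12, 76255298 to 76319803, plus strand), the cytosolic enzyme with all 3 activities, had 6553 and 7484 reads and a log2 ratio of -0.13 (interval -0.18 to -0.08). Mthfd1l and Mthfd1 kept their proportion, at 0.356 in IR and 0.362 in NC per length, with a difference of log2 ratios of -0.03 (interval -0.12 to 0.07).

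By compartment, Shmt2, Mthfd2 and Mthfd1l came to 1580 CPM for IR against 1707 for NC (log2 ratio -0.11, interval -0.13 to -0.10). The cytosolic pair Shmt1 and Mthfd1 came to 324 and 314 CPM (log2 ratio 0.04, interval 0.0071 to 0.08). Beyond shares of all counted reads, the sums were not recomputed under other library scalings, and their intervals do not cover the choice of scaling. The cytosolic pair took 0.0321% of counted reads in IR and 0.0317% in NC, still slightly more in IR. Scaling by total counts moved the median log2 ratio of all compared genes from -0.0069 to -0.034. The cytosolic difference thus varies with the scaling, and no interval was computed for the shares, so its direction remains uncertain.

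The order of the 8 genes by level per length was Phgdh, Shmt2, Psat1, Mthfd2, Psph, Mthfd1, Shmt1 and Mthfd1l in the IR library. In NC the order was the same except that Psph, at 77.8, stood above Mthfd2, at 63.9, whereas in IR Mthfd2 (70.4) stood above Psph (62.3). No neighbours in either order had overlapping counting intervals. The closest were Psat1 and Psph in NC, 1.11 times apart.

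**Figure D2:**
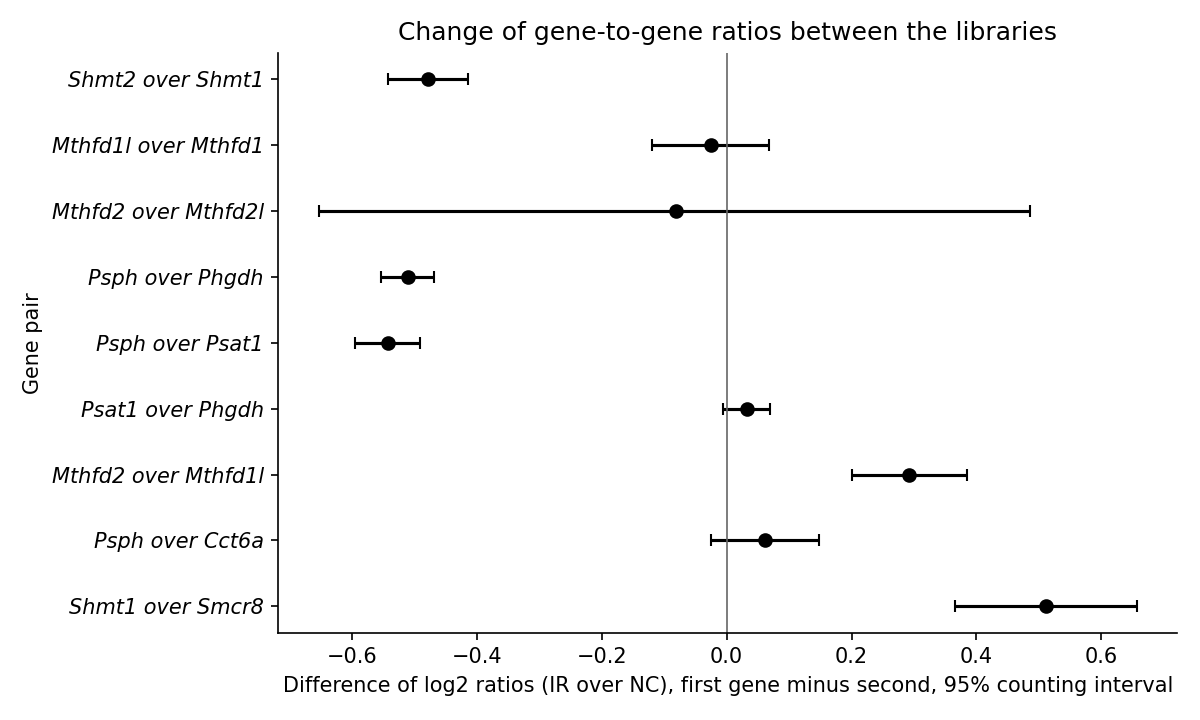
Difference of log2 ratios (IR over NC) between the genes of 9 pairs, first gene minus second, with exact 95% intervals for counting error. Psph over Phgdh, Psph over Psat1 and Shmt2 over Shmt1 lie near -0.5, whereas Psat1 over Phgdh, Mthfd1l over Mthfd1, Mthfd2 over Mthfd2l and Psph over Cct6a include 0.

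None of the 8 was at least 2-fold different, a rule that called 374 of the 10921 compared genes (3.42%), 1.6% as higher and 1.82% as lower in IR. None was at least 1.5-fold different, against 13% of all compared genes (6.09% higher, 6.9% lower). Of the 2184 genes with the highest expression, to which 7 of the 8 belong, 3.75% were past that fold, so a count of 0 among 8 is near the background. The counting interval lay above 0 for 4 of the 8 and below 0 for 4, against 31.2% and 32.4% of all compared genes. It thus excluded 0 for 8 of 8, against 63.6% of all compared genes and 85% of the 2184 most expressed, so at this depth an interval clear of 0 was the usual outcome.

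The median log2 ratio of the 8 genes was 0.0045, from -0.32 for Psph to 0.32 for Shmt1, and the median of all compared genes was -0.0069. Without Psph, which the removal of genes with at least 10% exon overlap drops, the median of the other 7 was 0.14. Shmt1 and Psph were farthest from 0, yet 20.7% and 21.4% of the 2184 most expressed genes lay at least as far. For Phgdh that share was 46.9%, for Psat1 39.2%, for Shmt2 55.6%, for Mthfd2 60.4% and for Mthfd1 62.3%. Mthfd1l belongs to the next lower class of expression, where 57.4% of genes lay at least as far.

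**Figure D3:**
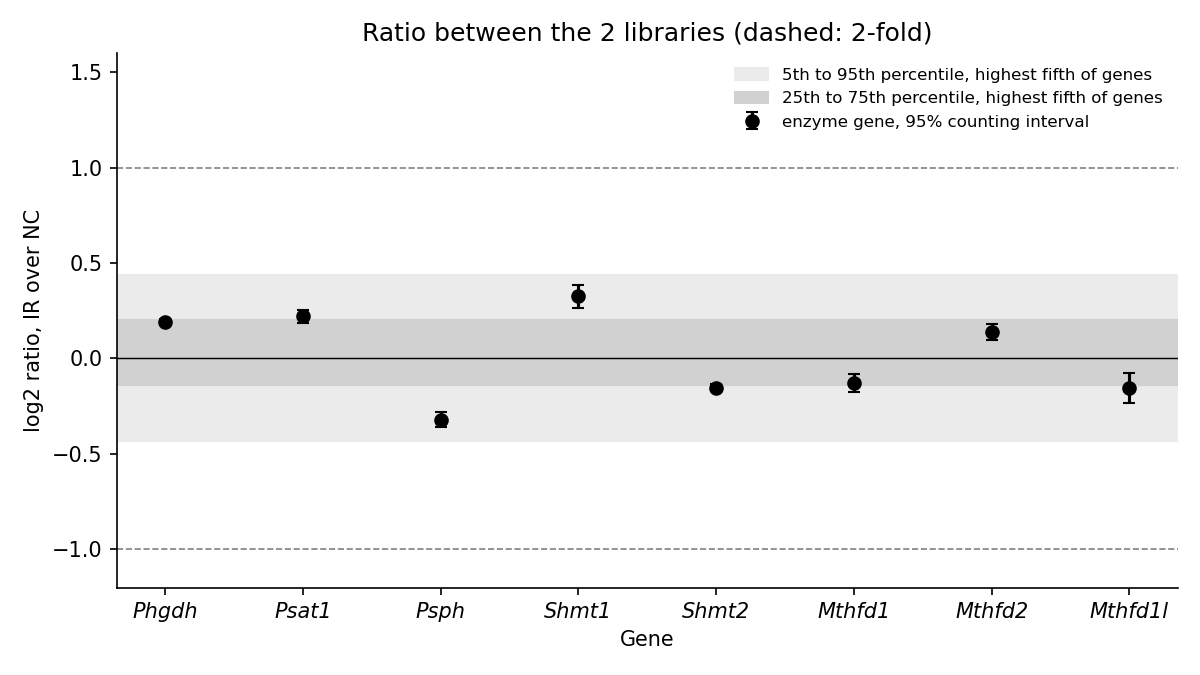
Log2 ratio of IR over NC for the 8 genes with exact 95% counting intervals, over bands from the 25th to the 75th and from the 5th to the 95th percentile of the 2184 genes with the highest expression. All 8 points lie inside the outer band, which runs from -0.43 to 0.43, and far from the dashed lines of a 2-fold difference.

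**Figure D4:**
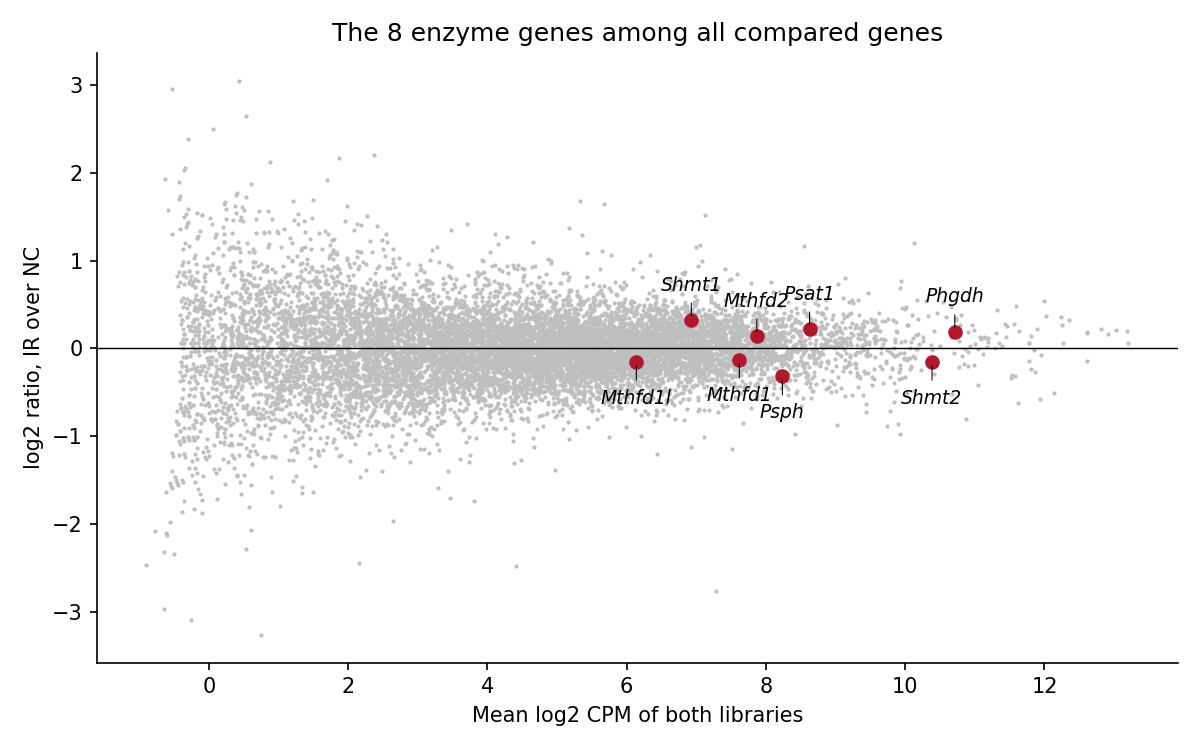
Log2 ratio of IR over NC against mean log2 CPM for 10921 compared genes (grey, 1 point per gene), with the 8 enzyme genes in red. The enzyme genes sit in the right part of the cloud, where the spread is narrow, and divide evenly above and below 0.

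Other genes of folate metabolism were mostly scarce. As background for the lists from here on, 31.2% of all compared genes had an interval above 0 and 32.4% below. Of 13 further genes listed around folate interconversion, not all of them folate enzymes, 9 could be compared. Of these, 2 had an interval above 0, 2 below and 5 including 0, and the median was -0.04. Aldh1l2, the mitochondrial enzyme that burns formyl groups to carbon dioxide, was the exception in size: it had 231 reads in IR and 637 in NC, a log2 ratio of -1.39 (interval -1.62 to -1.18), at least 2-fold lower in IR. Its exons overlap another gene over 14.1% of their length, so its reads are uncertain. Mthfs, which returns 5-formyltetrahydrofolate to the pool, was highest at 0.55 from 120 and 85 reads.

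Genes that carry folate in and out or keep it in cells had a median of 0.21, with 5 of 8 intervals above 0 and 1 below. Abcg2, an efflux pump that also exports folates, was highest (206 and 109 reads, 0.97), followed by the mitochondrial folate carrier Slc25a32 (146 and 82 reads, 0.88, chosen after its value was seen). Ggh, which trims the glutamate tail that holds folates in cells, was lowest with 237 and 468 reads (log2 ratio -0.91, interval -1.15 to -0.69).

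Purine synthesis, which takes up formyl groups from folate in 2 reactions, had 10 of 13 genes with an interval above 0, 1 below and 2 including 0, and a median of 0.29. Among all compared genes 31.2% of intervals lay above 0 and 32.4% below. Over all neighbouring lists, purine synthesis included and each gene once, 50 of 118 intervals lay above 0 and 36 below, with a median of 0.03. No purine gene was 2-fold different, and the list was chosen with earlier results known. Gmps, the last enzyme of guanylate synthesis, had 889 and 650 reads (0.51), and Adss, an adenylosuccinate synthetase, 568 and 431 (0.46). Gart, which performs the first formyl transfer and was picked with its value known, had 11093 and 9359 reads (0.31, uncertain because 19.7% of its exon sequence overlaps an antisense gene), and Atic, which performs the second, 8406 and 8728 (0.0082). The muscle-type synthetase Adssl1 was lowest at -0.28. In thymidylate synthesis 4 of 6 genes were compared, from Dut (-0.28) to the thymidine kinase Tk1 (0.28), with a median of 0.0014.

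Genes that use or supply serine and glycine showed no common direction. The glycine cleavage system ran from Gldc, the glycine decarboxylase, at 0.42 from 70 and 54 reads (interval -0.10 to 0.98) to Dld at -0.52 (interval -0.69 to -0.36). Among 9 serine and glycine carriers the median was 0.03. Sfxn1, the mitochondrial serine carrier, had 796 and 589 reads (0.50, interval 0.34 to 0.65), and Slc1a5, which exchanges serine and glutamine at the cell surface, 8266 and 11809 (-0.45, interval -0.49 to -0.41). Of 10 genes of serine lipids and other serine enzymes 4 had an interval below 0 and 1 above, with the highest ratios for Serinc2 (1.27 from 56 and 23 reads) and Serinc1 (0.11), and the lowest for Sptlc2, a subunit of the enzyme that starts sphingolipid synthesis, at -0.24 and the phosphatidylserine synthase Ptdss2 at -0.24.

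Methionine cycle genes had a median of -0.13, with 4 of 9 intervals below 0 and 2 above, from Nnmt (0.10) to Mat1a (-1.13 from 19 and 46 reads). In transsulfuration and glutathione synthesis, Cth, which makes cysteine from cystathionine, was lowest (781 and 1146 reads, -0.49) and Gclm highest (0.29). Lower glycolysis, from which 3-phosphoglycerate is drawn, had a median of 0.17 with 6 of 8 intervals above 0 and 2 below, from Gapdh (0.28) to Bpgm (-0.42). Among 7 glutamate and transaminase genes the median was 0.03, with Got1 highest (0.32) and the glutamine synthetase Glul lowest (-0.21). Proline synthesis, the other source of a main collagen residue, divided between Pycr1 (3351 and 4836 reads, -0.47) and the proline-degrading Prodh (229 and 111 reads, 1.09).

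Regulators of the pathway were mixed as well. Atf4 (picked with its value known) had 34873 and 37648 reads and a log2 ratio of -0.05 (interval -0.07 to -0.03). Of 20 compared genes in the list of Atf4 and its amino acid targets 6 had an interval above 0, 9 below and 5 including 0, with a median of -0.04. The stress factors Ddit3 (0.45, with 10.9% exon overlap) and Atf3 (0.38) were highest, and the cystine transporter Slc7a11 (-0.64) and Vldlr (-0.49) lowest. Of the 13 upstream regulators Myc, a known activator of serine and folate genes, had the highest ratio, at 25788 and 15511 reads (log2 ratio 0.80, interval 0.77 to 0.82), followed by the histone methyltransferase Ehmt2 (0.24). The lowest were Trp53 (46 and 84 reads, -0.78) and the TGF-beta effector Smad3 (1670 and 2312 reads, -0.41).

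**Figure D5:**
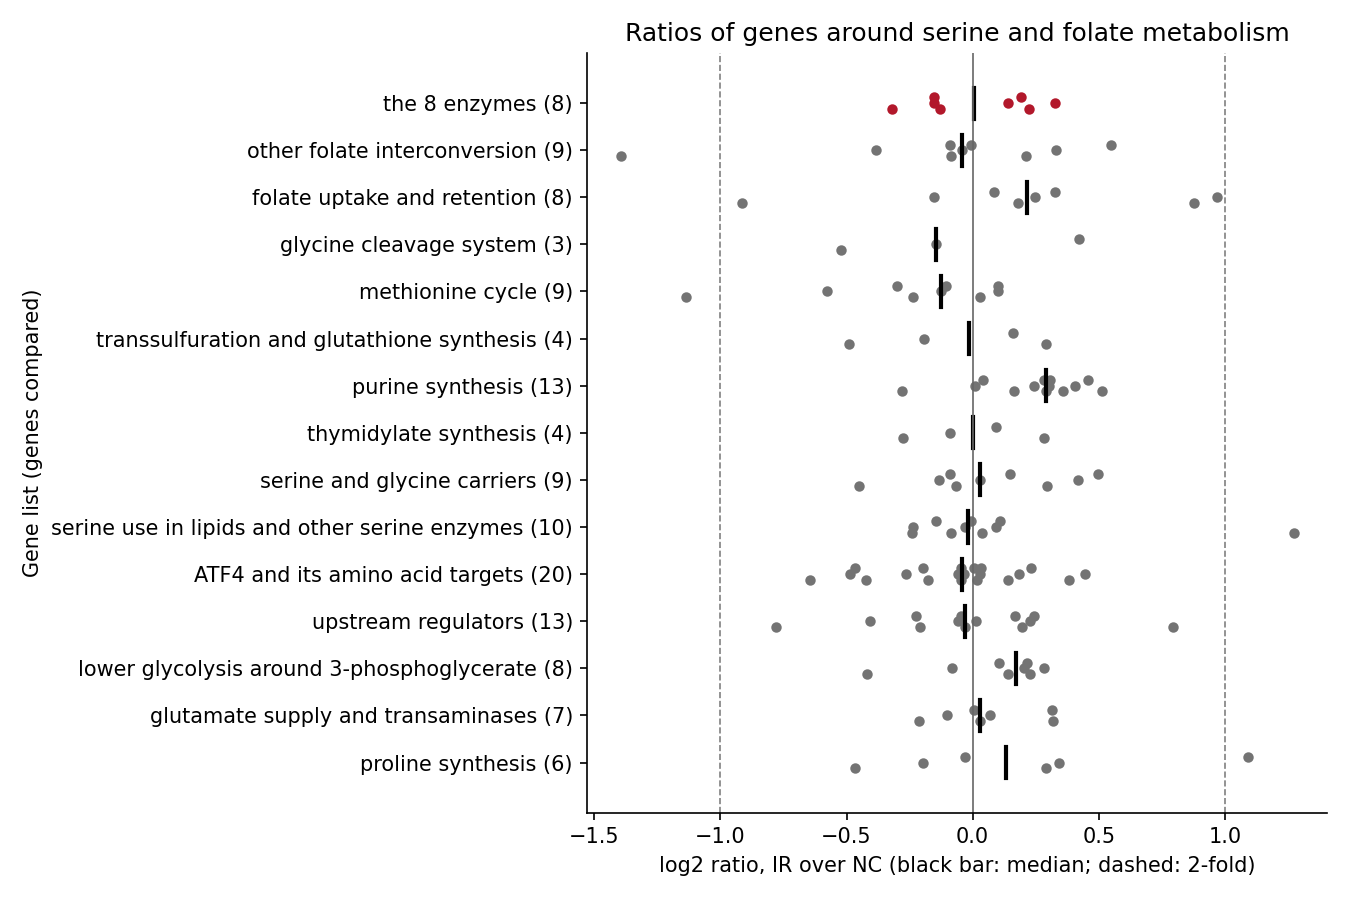
Log2 ratio of IR over NC for the 8 enzymes (red) and for the compared genes of 14 neighbouring gene lists (grey, 1 point per gene), with a black bar at each median and dashed lines at a 2-fold difference. Purine synthesis has the highest median at 0.29 and the glycine cleavage system the lowest at -0.15, and the 8 enzymes lie between -0.32 and 0.32.

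The promoters of the 8 genes were read from RefSeq (GRCm38.p6), as windows from 250 bases before to 50 bases after each start, of which there were 9 because Psat1 has 2. All 8 genes matched by symbol. The windows of Mthfd2, Psat1 and Shmt1 lie wholly inside the spans that GENCODE gives these genes, so RefSeq and GENCODE place their 5′ ends differently. The CCAAT box (CCAAT or ATTGG, both strands searched) was looked for after it was seen between Psph and Cct6a. It stood in the windows of 6 genes, Phgdh, Psat1, Psph, Shmt1, Mthfd1 and Mthfd2, and so in 6 of 9 windows against 37.4% of all 32851 windows. The 6 windows include that of Psph, where the box was first seen. The 32851 windows were not limited to expressed genes, so the shares do not show that the box marks these enzymes. The windows of Shmt2 and Mthfd1l held none. Of the 6 genes with the box, 4 were higher in IR and 2 lower, and both genes without it were lower. With only 8 genes and no replicate libraries, this split cannot show whether the box goes with a direction.

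Mthfd2 had the most boxes before its RefSeq start, with 3. A stretch around the one farthest from the start (chr6:83317671-83317725, minus strand) and one before Phgdh (chr3:98340133-98340187, minus strand) show the box in capitals. They were chosen because these genes were higher in IR, whereas Psph, whose boxes are given above, was lower. The part of the box in either direction was not tested.
Mthfd2: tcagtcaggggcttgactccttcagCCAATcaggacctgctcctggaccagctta
Phgdh: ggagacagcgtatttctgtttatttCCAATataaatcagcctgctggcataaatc
The form TGATGNAA of the C/EBP-ATF response element, through which ATF4 binds, was in none of the 9 windows and in 3.97% of all windows. The E-box CACGTG, which Myc binds, was likewise in none of the 9 and in 7.15% of all. At such low shares, finding none among 9 windows is near the background. Other forms of these elements and sites outside the windows were not searched. The antioxidant response element TGACNNNGC was in 2 of 9 windows, those of Phgdh and Psph, against 12.4% of all. These are matches of letters and not measured binding sites.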

How the data were processed

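Raw counts for each gene were deposited by the authors, per the file headers. The submitters' processing notes name build mm10 and the tools edgeR, HTSeq 0.9.1, HISAT2 and cutadapt 1.9.3. The annotation release and the strand setting are not given in the sources used here. A further 2 value columns were not used. Library sizes were scaled with TMM factors (0.991 for IR, 1.01 for NC; edgeR 4.0.16, R 4.3.3). Log2 ratios came from log2 CPM with a prior count of 2, for genes with at least 50 reads over both libraries. A gene was called 2-fold different if the log2 ratio reached 1 or -1 and the interval excluded 0. Ratio intervals are Clopper-Pearson and those of levels Poisson, all at 95%. They cover counting error only, and PCR copies are not independent molecules. The floor of 3 counts was 0.086 CPM in IR and 0.0824 in NC. Gaps between the log2 ratios of gene pairs have exact conditional intervals.

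Lengths (all exons joined), positions and overlaps came from GENCODE vM21, which held 14584 of 14694 genes. The calls were tested on simulated data with counting noise only. That simulation leaves out variation between replicates, so it does not show how the calls perform on real libraries. The members and gene lists were chosen with earlier results of these data known, as were the motifs and 6 of the 9 gene pairs. All 8 members are named, with Mthfd2l and the extreme genes by ratio of each list with at least 3 compared (the 2 highest and 2 lowest where at least 10 were compared, otherwise 1 of each).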

Additional observations from a re-analysis of the deposited data

How the results depend on the processing

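Each of the 8 ratios kept its direction under all 12 alternatives (11 for Psph). These were 4 other library scalings, prior counts of 0.5 and 5, a read minimum of 200 or none, NC thinned to the depth of IR, a loess correction for expression or for exon length with GC content, and removal of genes with at least 10% exon overlap, which drops Psph. Psph ran from -0.35 to -0.28, Shmt1 from 0.30 to 0.35 and Phgdh from 0.13 to 0.22. Shmt2 ran from -0.21 to -0.13 and Mthfd1 from -0.16 to -0.06. Of the recomputed ratios, 85 stayed within the main counting interval of the gene and 10 left it. Those 10 belonged to Phgdh, Shmt2, Psat1 and Mthfd1, so the counting intervals do not cover the choice of processing. The 9 pair differences were recomputed only with the thinned library, where they stayed within their intervals. As the libraries were close in depth, the thinning was slight and this outcome was nearly fixed in advance. Over all genes, the counts of 175 higher and 199 lower by at least 2-fold became 665 and 754 at 1.5-fold, 10 and 14 at 4-fold, 73 and 71 with at least 200 reads, and 584 and 606 without a filter. Levels per length were higher with the longest transcript in place of all exons, for Mthfd2 117.7 against 70.4 in IR. No paired analysis was possible because the groups share a single number, 4, with 1 library each. The median of the 8 ratios, 0.0045, ran from -0.02 to 0.05 except without overlapping genes (0.14, 7 genes). The lack of replicates, shared sequence and overlapping exons limit these values.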

Other observations

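Tyms, the thymidylate synthase that consumes methylene-tetrahydrofolate, had 5 reads in IR and 1 in NC, whereas the thymidine kinase Tk1 had 5221 and 4482. Of the 50-base words of Tyms, 5.72% occur in other annotated genes. Amt, the aminomethyltransferase of the glycine cleavage system, had 2 and 22 reads. Tyms and Amt were chosen after their values were seen.

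Of the 34 genes that the deposited table assigns to glycine, serine and threonine metabolism, 23 were compared, 8 with an interval above 0, 9 below and 6 including 0. Gcat, which makes glycine from a breakdown product of threonine, was the highest of them, with 3472 and 2345 reads (log2 ratio 0.63, interval 0.55 to 0.70). Its ratio is uncertain because 47.5% of its exon sequence overlaps a second annotated gene record of the same name. Maoa, a monoamine oxidase, was the lowest, with 443 and 766 reads (-0.73, interval -0.90 to -0.56). In the folate pathway of the same table, 14 of 17 genes were compared, 4 above, 5 below and 5 including 0. These pathway lists hold members of the 8 enzymes as well.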
